A study of Homo sapiens with 9 samples.

Results

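Chromosome 19 carries the densest collection of zinc finger genes in the human genome, arranged in tandem clusters on both arms. The members described here were all GENCODE protein-coding genes of this chromosome whose symbol is ZNF followed by a number, which gave 240 of 20033 protein-coding genes, 83 on the p arm and 157 on the q arm. Another 236 genes with such symbols lie on other chromosomes, and 1236 other protein-coding genes lie on chromosome 19. Chromatin accessibility at their promoters was read from ATAC-seq of MDA-MB-231, a human triple-negative breast cancer cell line, in 9 libraries. ATAC-seq uses a transposase that cuts exposed DNA, so that a peak marks open chromatin. There were 2 libraries each of cells with a control shRNA (shCtrl), an shRNA against EZH2 (shEZH2) and an shRNA against E2F1 (shE2F1), and 1 library each of cells with an shRNA against SUZ12 (shSUZ12), of cells given DMSO and of cells given GSK126. EZH2 is the methyltransferase and SUZ12 a core subunit of the PRC2 repressor complex, E2F1 is a cell cycle transcription factor, and GSK126 inhibits the methyltransferase activity of EZH2. Transduced cells were exposed to lentivirus for 24 h and selected with 2 μg/ml puromycin for 72 h, and GSK126 was given for 72 h, at a dose that the sources used here do not give for these libraries. All groups come from this 1 cell line, and nothing in the labels says that replicates were separate cultures, so p-values measure only the spread between these libraries, which may be technical.

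Most of these genes encode C2H2 zinc finger proteins, whose tandem fingers read DNA sequence, and many also carry a KRAB domain. A KRAB domain recruits the corepressor TRIM28 and with it SETDB1, which methylates histone H3 on lysine 9, and the best known targets of such proteins are retrotransposons. The clusters grew by repeated local duplication, so neighbouring genes and their promoters resemble each other. A strict pattern search in the canonical proteins found a KRAB signature in 179 of the 240 members, a minimum, since it missed known KRAB proteins such as ZNF224. The median finger count was 12 among members with a promoter peak in every library and also 12 among those with none, and the largest count was 36, in ZNF208.

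A promoter was called open in a library where a listed peak overlapped the start of the canonical transcript plus or minus 1000 bp. Its strength was the percentile of the strongest such peak among all peaks of the same list, ranked by fold enrichment over background. The lists held 58626 to 85812 peaks, of which 4.12% to 4.54% lay on chromosome 19. The tag counts that the listed fold enrichment and p-value imply gave a commonest background of 1.41 to 2.18 tags at a peak summit, lowest in shEZH2 replicate 2 and highest in shE2F1 replicate 2, so depth differed between libraries of 1 group. At the summits of member peaks the median was 65 tags in the library with the lowest median and 141 in that with the highest. Of the markers of other cell types, the 3 leukocyte and both hepatocyte genes had no promoter peak in any library, whereas all 5 genes for a mesenchymal-type breast cancer line (VIM, CD44, AXL, EGFR and CAV1) were open in all 9. The mean percentiles of these 5 genes were 39.6, 41.9, 15.1, 43.5 and 39.5, in the order named. Of 4 luminal breast genes, GATA3 was open in none, but ESR1 had a peak in 8 libraries and PGR and FOXA1 in 7 each, at mean percentiles of 23.2, 16.2 and 6.92. The mean of AXL was thus below those of ESR1 and PGR. The promoters of EZH2, E2F1 and SUZ12 were open in all 9 libraries too, which does not check the knockdowns, since an shRNA acts on RNA.

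The member promoters were open at a nearly constant share in every library. The share was 86.7% and 86.2% in the shCtrl libraries, 86.7% and 85.4% in shEZH2, 86.2% and 87.1% in shE2F1, 86.2% with DMSO, 85.8% with GSK126 and 85.4% in shSUZ12, that is 205 to 209 of 240 genes. The Wilson 95% interval was 81.8% to 90.4% for shCtrl replicate 1 and of like width in the others, and it covers counting error only. Over the 9 libraries the share averaged 86.2% ± 0.568 (SD, n = 9), against 65.1% ± 1.54 for all other protein-coding genes and 61.9% ± 1.75 for the other genes of chromosome 19. Members exceeded all other genes by 21.1 percentage points and their chromosome 19 neighbours by 24.3 points, in 9 of 9 libraries each (exact sign-flip permutation test over libraries, two-sided, p = 0.00391, the smallest that 9 libraries allow, adjusted p = 0.00586 over 12 tests).

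The open members also ranked among the strong peaks of their lists. Their median percentile was 92.1 and 91.5 in the shCtrl libraries, 88.7 and 88.2 in shEZH2, 91.8 and 93.0 in shE2F1, 92.2 with DMSO, 91.96 with GSK126 and 93.0 in shSUZ12. Both shEZH2 libraries were the lowest, and the others overlapped. Between 42.4% and 62.9% of open members were at or above percentile 90, against 20.9% to 28.7% of other open promoters, and 0.976% to 6.83% were below percentile 50, against 21.004% to 29.1%. Averaged over libraries, the median percentile of members was 91.4 ± 1.74 (SD, n = 9), which was 16.4 above all other genes, 20.7 above other chromosome 19 genes and 7.02 above the ZNF genes of other chromosomes. Each of these differences had the same sign in 9 of 9 libraries (exact sign-flip test, p = 0.00391, adjusted p = 0.00586). Their size depended on the measure. Ranked by −log10 p instead of fold enrichment, members were 8.03 above all other genes, 4.85 above ZNF genes elsewhere and only 2.52 above other chromosome 19 genes (exact sign-flip test, p = 0.00391 each).

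In contrast to strength, presence did not set the chromosome 19 genes apart from the other ZNF genes. The share open was 87.4% ± 1.41 for the 236 ZNF genes elsewhere, 1.23 points above the members, with the members lower in 7 of 9 libraries (exact sign-flip test, p = 0.0391, adjusted p = 0.0469). This small difference did not hold when symbols with a trailing letter were counted, where members were 1.58 points higher (exact sign-flip test, p = 0.00781), and it was not past the threshold with windows of 250 bp or lists of equal length, where members were also higher.

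**Figure D1:**
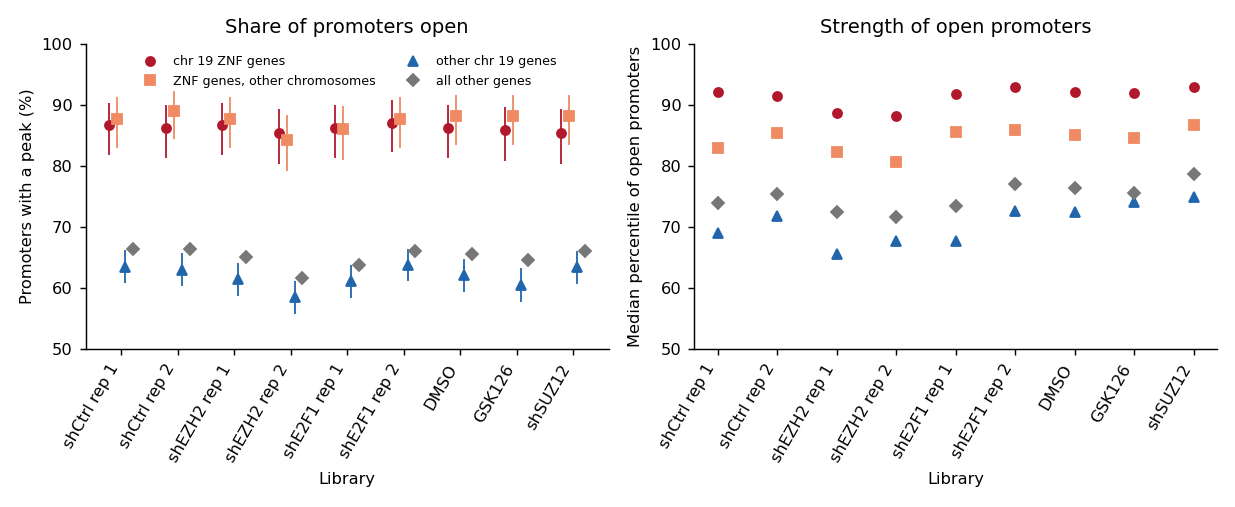
Left, percentage of promoters with a peak in each of the 9 libraries, with Wilson 95% intervals as vertical lines; right, median within-library percentile of fold enrichment of the open promoters. Chromosome 19 ZNF genes (circles) lie at 85.4% to 87.1% open, level with ZNF genes of other chromosomes (squares), and have the highest median percentile of the 4 sets in every library; both vertical axes start at 50.

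Few members had a promoter peak in some libraries only. A promoter peak was present in all 9 libraries for 204 members (85.0%), in none for 29 (12.1%) and in 1 to 8 for 7 (2.92%). Among all other genes the last share was 10.96%, among other chromosome 19 genes 15.1% and among ZNF genes elsewhere 8.47%. For members open in all 9 libraries, the SD of the percentile over libraries had a median of 3.93, against 5.36 for ZNF genes elsewhere and 6.67 for all other genes open in all 9. These values are descriptions with no test, and percentiles near their upper limit of 100 have less room to vary.

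Member peaks were centred on the start sites. The median width of their promoter peak was 862 to 1087 bp over the 9 libraries, against 790 to 1024 bp for other genes. The median summit lay 50 to 58 bp before the start, and 96.6% to 98.6% of the peaks covered the start itself, against 85.4% to 89.1% for other genes. In shCtrl replicate 1, 32 of the 208 open members shared their peak with the start of another protein-coding gene, and their median percentile was 94.0 against 91.9 for the other open members. Outside promoters the clusters had fewer peaks than the rest of this chromosome. Across the 16.7 Mb that the clusters defined below span, peaks away from any protein-coding start numbered 15.2 to 26.3 per Mb. In the rest of chromosome 19 there were 32.5 to 50.2 per Mb, and other chromosomes were not compared. Of all peaks in the clusters, 29.8% to 40.3% lay at a member promoter.

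Members with starts no more than 1 Mb apart formed 9 clusters of at least 5 genes, numbered here from the tip of the p arm, and 9 members lay outside them. All coordinates are in GRCh38. On the p arm, cluster 1 (ZNF554 to ZNF77) held 5 genes, cluster 2 (ZNF557 to ZNF846) 15, cluster 3 (ZNF653 to ZNF791) 25 and cluster 4 (ZNF101 to ZNF254) 37. On the q arm, cluster 5 (ZNF302 to ZNF792) held 5 genes, cluster 6 (ZNF565 to ZNF573) 24, cluster 7 (ZNF575 to ZNF296) 24, cluster 8 (ZNF175 to ZNF331) 39 and cluster 9 (ZNF628 to ZNF446) 57. All 25 genes of cluster 3 were open in all 9 libraries. In cluster 4 only 27 of 37 were open in all 9 libraries and the other 10 in none, a share of 73.0% in every library. Clusters 2, 6, 7, 8 and 9 had mean shares of 86.7%, 88.0%, 83.3%, 92.02% and 86.7%. The mean over libraries of the cluster's median percentile was 85.3 in cluster 2 and 86.9 in cluster 6, and 88.5 to 94.5 in the other clusters.

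**Figure D2:**
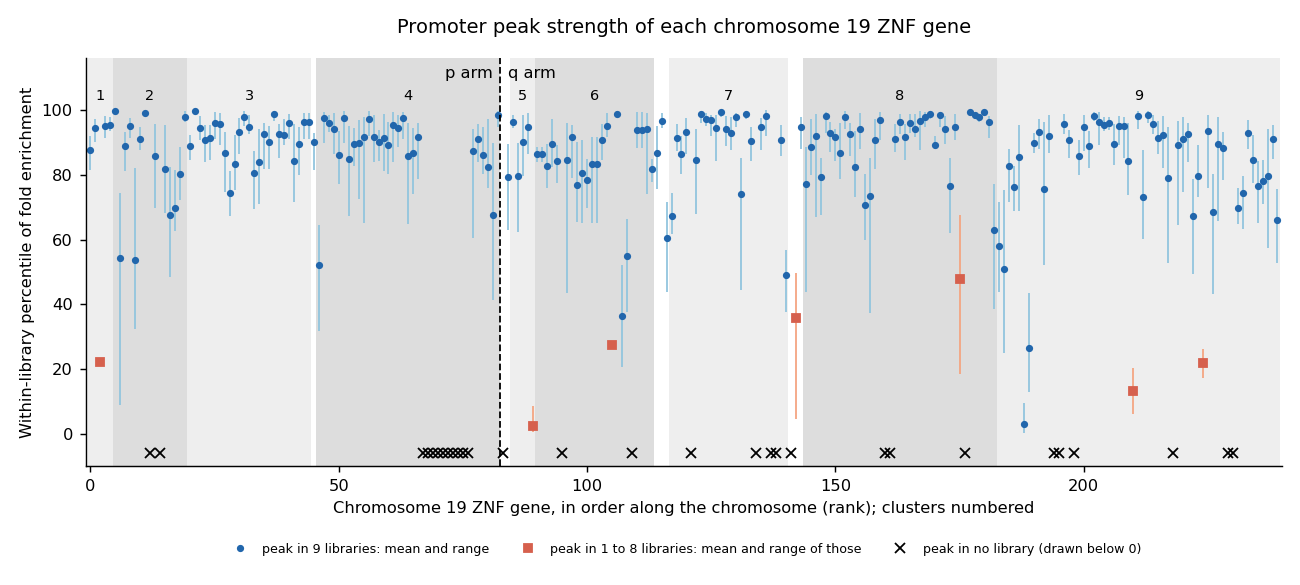
Within-library percentile of the promoter peak of each of the 240 chromosome 19 ZNF genes, in order along the chromosome by rank and not to physical scale, with the 9 clusters shaded and numbered and the arms divided by a dashed line. Points are means and lines the range over libraries with a peak; crosses mark the 29 genes with no promoter peak in any library, 10 of them adjacent in cluster 4.

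The p arm had a slightly lower share of open members than the q arm. The share was 84.3% in 8 libraries and 85.5% in shE2F1 replicate 2 on the p arm, that is 70 or 71 of 83 genes, and 86.0% to 87.9% on the q arm, that is 135 to 138 of 157. The difference averaged 2.65 points lower on the p arm, with the same sign in 9 of 9 libraries (exact sign-flip test, p = 0.00391, adjusted p = 0.00586), although in shCtrl replicate 1 the intervals of the arms, 75.02% to 90.6% and 81.9% to 92.1%, overlapped. With 204 members open in all 9 libraries and 29 in none, the libraries largely repeat the same genes. This p-value therefore measures agreement between libraries and not whether the arms differ beyond the spread between genes. The difference, p arm minus q arm, was -1.45 points with windows of 250 bp and -4.28 points with the starts of any protein-coding transcript. The 10 shut genes of cluster 4 were 10 of the 12 p arm members without a peak. Without them, as a description chosen after their values were seen, the p arm share was 95.9% to 97.3%. The other genes of chromosome 19 showed the opposite order, 68.6% open on the p arm and 56.5% on the q arm, so that the arm difference of members was 14.8 points below theirs in the mean and lower in 9 of 9 libraries (exact sign-flip test, p = 0.00391, adjusted p = 0.00586).

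For strength, the arms could not be ordered independently of the measure. The median percentile of fold enrichment was 88.9 to 93.7 on the p arm and 87.9 to 93.2 on the q arm, 1.37 higher on the p arm in the mean and higher in 7 of 9 libraries (exact sign-flip test, p = 0.0352, adjusted p = 0.0469). Ranked by the p-value of the peaks instead, the p arm was 2.57 lower (exact sign-flip test, p = 0.00391). The tags behind these ranks showed both sides of the ratio. The median summit count was higher on the q arm in 9 of 9 libraries (mean of medians 110.2 tags against 94.1), and so was the local background (7.39 tags against 5.82). The difference between arms in percentile was not distinguishable from that of other chromosome 19 genes (1.48 points, exact sign-flip test, p = 0.234, adjusted p = 0.256).

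The 10 shut members of cluster 4 were consecutive. ZNF208, ZNF257, ZNF676, ZNF729, ZNF98, ZNF492, ZNF99, ZNF723, ZNF728 and ZNF730 have their starts between chr19:22010943 and chr19:23117025, a span of 1.11 Mb, and no other run of shut neighbours exceeded 2 genes. The flanking genes were open in all 9 libraries, ZNF43 at a mean percentile of 91.8 on one side, 175 kb from ZNF208, and ZNF724 at 87.3 on the other, 133 kb from ZNF730. In 6 libraries no peak of any kind was listed from 1000 bp before the first of these starts to 1000 bp after the last. The other 3 libraries listed 1 each: shEZH2 replicate 2 had a weak one at percentile 7.32, and the shE2F1 libraries had one at percentiles 36.4 and 46.4, which overlapped between them. In the rest of cluster 4 the density was 16.001 to 21.1 peaks per Mb. Apart from the interval that spans the centromere, the 2 longest intervals of chromosome 19 without a peak in any library, 822822 bp and 480496 bp, both lay here and contained the starts of 9 of the 10 genes. By length they ranked 225 and 475 among all such intervals of the genome.

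Sequences at the starts are shown to compare genes inside and beside this run. Each is 200 bases of GRCh38, written 5′ to 3′ on the gene's strand, with 180 bases before the start and 20 from it on, and capitals mark CpG dinucleotides. The first and last of the lines below are the open flanking genes and the middle lines are the first and last shut genes.
ZNF43 (chr19:21836163-21836362, minus strand): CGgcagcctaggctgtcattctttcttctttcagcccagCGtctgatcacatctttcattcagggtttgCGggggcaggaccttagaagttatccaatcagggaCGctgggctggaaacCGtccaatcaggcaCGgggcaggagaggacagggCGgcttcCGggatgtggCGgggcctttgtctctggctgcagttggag
ZNF208 (chr19:22010924-22011123, minus strand): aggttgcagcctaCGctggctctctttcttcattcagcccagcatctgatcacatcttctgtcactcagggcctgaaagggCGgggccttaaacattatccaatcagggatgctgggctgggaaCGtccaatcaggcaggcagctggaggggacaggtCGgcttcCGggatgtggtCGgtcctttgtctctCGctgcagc
ZNF730 (chr19:23116845-23117044, plus strand): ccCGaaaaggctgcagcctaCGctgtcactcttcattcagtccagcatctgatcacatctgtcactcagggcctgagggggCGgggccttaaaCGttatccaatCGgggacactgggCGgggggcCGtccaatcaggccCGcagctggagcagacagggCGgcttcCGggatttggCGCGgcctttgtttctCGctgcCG
ZNF724 (chr19:23250375-23250574, minus strand): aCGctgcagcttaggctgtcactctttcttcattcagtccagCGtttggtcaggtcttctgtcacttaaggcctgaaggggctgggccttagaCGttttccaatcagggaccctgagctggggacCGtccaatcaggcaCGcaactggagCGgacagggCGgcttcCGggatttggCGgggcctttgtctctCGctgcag
These 4 windows held 9, 7, 14 and 10 CpGs, so that among these 4 genes CpG number did not separate shut from open. All contain the word CCAATCAGG, which holds the CCAAT box. This word was searched on either strand of the 300 bases from 250 before to 50 after the start. It was found in 26 of the 27 open genes of cluster 4 (96.3%) and in 7 of the 10 shut ones (70.0%). Outside the cluster it was found in 17 of 203 members (8.37%) and in 24 of 236 ZNF genes of other chromosomes (10.2%). Among all promoters the share was 1.57%. CCAAT alone was found in 27 of 27 open and 9 of 10 shut genes of cluster 4, against 36.1% of all promoters. The words were chosen after the sequences were seen, and a match describes letters, not a site in use. By best ungapped identity over these 300 bases, allowing shifts up to 60 bases, ZNF257 was 80.0% identical to the open ZNF486 and ZNF98 79.9% to the open ZNF431, both above their closest match within the run (70.1% and 69.7%). ZNF723, ZNF730, ZNF676 and ZNF492 were also closest to an open gene. In contrast, ZNF208, ZNF729, ZNF99 and ZNF728 were closer to another gene of the run (73.4% to 74.8%) than to any open one (59.9% to 70.4%). The 27 open genes offer more candidates than the run does. Over all pairs the median identity was 52.3% between shut and open genes and 52.3% within the run. ZNF676 and ZNF492 had no match above 60% in the cluster, at 33.9% and 55.7%.

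Base composition and the uniqueness of short words overlapped between the run and its neighbours, although their medians differed. The ratio of observed to expected CpG had a median of 0.612 in the 10 shut genes and 0.448 in the 27 open genes of cluster 4, and the GC content medians were 57.8% and 55.7%. The share of 31-base words within 1000 bp of the start that occur once in the genome was 63.1% to 84.6% for the shut genes (median 73.0%) and 65.6% to 97.8% for the open ones (median 80.6%). This share is not the mappability of the sequenced reads, which was not measured. The aligner was allowed to report several positions per read, and how reads with several positions were counted is not given in the sources used here, so the part of lower uniqueness in the missing peaks was not tested. The number of copies of this region in the cell line was not measured either.

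The remaining 19 shut members were scattered. They were ZNF177 and ZNF560 in cluster 2, ZNF382 and ZNF793 in cluster 6, ZNF404, ZNF233, ZNF285 and ZNF229 in cluster 7, ZNF534, ZNF578 and ZNF677 in cluster 8, ZNF667, ZNF471, ZNF835, ZNF154, ZNF135 and ZNF329 in cluster 9, and ZNF536 and ZNF541 outside the clusters. Those not in the naming rule are listed for completeness after their values were seen. Most had promoters rich in CpG: 16 of 19 reached a ratio of observed to expected CpG of at least 0.6 and their median was 0.820, against 0.781 for the 204 members open in all libraries. This differs from the rest of the genome, where the shut promoters had a median of 0.311 and the open ones 0.863. Most were also in unique sequence, with a median of 96.1% unique words. The start of ZNF329 had a peak 3.497 to 3.66 kb away in every library, and the gene was open in all 9 when the starts of all its coding transcripts were used. It was the only shut member that gained a promoter peak in that way.

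**Figure D3:**
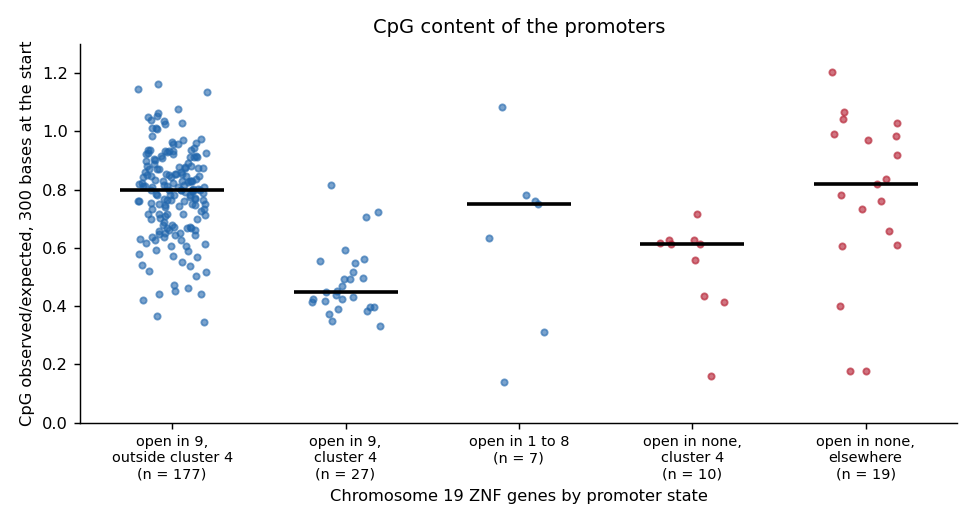
Ratio of observed to expected CpG in the 300 bases at the start (250 before, 50 after) of each chromosome 19 ZNF gene, by promoter state, with medians as bars. The 27 open genes of cluster 4 have the lowest median, 0.448, and the 19 shut genes outside cluster 4 the highest, 0.820.

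The promoters of ZNF471 and ZNF382, both shut, and of ZNF845, among the strongest open ones, are printed in the same way to show CpG-rich starts in opposite states.
ZNF471 (chr19:56507675-56507874, plus strand): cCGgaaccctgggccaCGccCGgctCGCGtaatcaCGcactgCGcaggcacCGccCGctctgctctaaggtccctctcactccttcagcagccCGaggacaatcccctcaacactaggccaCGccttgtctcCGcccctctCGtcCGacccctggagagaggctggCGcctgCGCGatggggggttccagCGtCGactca
ZNF382 (chr19:36605133-36605332, plus strand): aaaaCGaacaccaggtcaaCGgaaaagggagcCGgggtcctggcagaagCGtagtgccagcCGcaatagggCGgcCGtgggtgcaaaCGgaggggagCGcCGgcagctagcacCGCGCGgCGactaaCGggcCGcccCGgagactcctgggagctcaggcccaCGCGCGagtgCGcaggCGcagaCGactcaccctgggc
ZNF845 (chr19:53333569-53333768, plus strand): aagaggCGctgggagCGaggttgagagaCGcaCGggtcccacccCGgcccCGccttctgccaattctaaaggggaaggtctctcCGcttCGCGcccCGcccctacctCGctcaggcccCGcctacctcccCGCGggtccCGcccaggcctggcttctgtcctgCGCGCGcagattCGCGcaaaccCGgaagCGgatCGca
They held 19, 23 and 23 CpGs in 200 bases. ZNF845 had 114 to 230 tags at its summit, whereas the other promoters had no listed peak in 9 libraries, with the nearest one 30.3 to 30.4 kb away for ZNF471 and 31.1 to 31.3 kb for ZNF382.

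A list of 10 members known as targets of promoter methylation in cancers was split evenly. ZNF154, ZNF471, ZNF177, ZNF382 and ZNF677 were shut in all 9 libraries, which was 5 of 10, against 29 of all 240 members. ZNF132, ZNF671, ZNF582, ZNF577 and ZNF331 were open in all 9, with mean percentiles of 79.5, 89.2, 75.6, 88.7 and 63.0. DNA methylation was not measured in these libraries. The list was drawn from general knowledge with other results of the data known, and its counts carry no test. The even split includes ZNF331, which the naming rule gave apart from the methylation genes and which was placed with them here.

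The strongest member promoters reached the top of their lists. The 6 highest mean percentiles among members open in all 9 libraries belonged to ZNF557 (99.7), ZNF627 (99.7), ZNF845 (99.5), ZNF761 (99.3), ZNF223 (99.3) and ZNF559 (99.1), of which ZNF223 ranged from 97.8 to 99.96 and the others less. They lay in clusters 2, 3, 7 and 8. The 6 lowest were ZNF580 (2.90), ZNF581 (26.5), ZNF569 (36.3), ZNF296 (49.003), ZNF579 (50.8) and ZNF101 (52.2). ZNF580 and ZNF581, neighbours in cluster 9, had 31 to 68 and 74 to 140 summit tags, but over a local background of 12.3 to 20.8 and 13.0 to 21.9 tags. ZNF557 had 85 to 230 tags over a background of 4.52 to 9.82, in the 8 libraries in which the tags could be derived. ZNF569 and ZNF579 had 33 to 82 and 33 to 88 tags over a background of 5.28 to 12.3 and 5.70 to 9.36.

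Other preset members were all open in all 9 libraries. ZNF91 and ZNF93, KRAB zinc finger proteins that silence retrotransposons, had mean percentiles of 91.0 (range 84.01 to 95.9) and 86.3 (range 77.2 to 93.5). ZNF350, a KRAB protein that binds BRCA1, had 98.1, ZNF420 had 90.8, and ZNF274, which binds the 3′ ends of zinc finger genes, had 69.8 with a range of only 64.7 to 75.8. Of the 17 corepressor genes, 16 were open in all 9 libraries, with SETDB1 at a mean of 96.6 and DNMT1 at 94.3. TRIM28 itself, which lies on chromosome 19 near the distal end of cluster 9, had no promoter peak in any library, and the nearest peak was 5.40 to 23.7 kb from its start. TRIM28 is widely expressed, and whether peaks there were filtered from the lists was not tested. Short sequence motifs were present in a minority of the members. The ETS word CCGGAAGT, on either strand of the 300 bases, was found in 18.6% of the members open in all 9 and 6.90% of the shut ones, against 9.47% of other open promoters and 6.14% of all promoters. The YY1 word AAGATGGCG was found in 3.92% of open members and 0 of 29 shut ones, against 4.43% of other open promoters and 2.84% of all. At least 1 of the E2F words TTTGGCGC, TTTCCCGC, TTTGCCGC and TTTCGCGC was found in 5.88% of open members and in 4 of the 29 shut ones (13.8%), against 5.70% of other open promoters and 4.36% of all. The median percentile of members with the ETS word was 91.3 in the mean over libraries and that of members without it also 91.3.

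7 members were open in some libraries only, mostly with weak peaks. ZNF556 and ZNF875 had a peak in shE2F1 replicate 2 alone, at percentiles 22.2 and 27.4. ZNF773 had one in shCtrl replicate 1 and shEZH2 replicate 1, and ZNF814 in shEZH2 replicate 1 and shE2F1 replicate 1. ZNF665 lacked one only in shEZH2 replicate 2 and ranged from 18.5 to 67.5 elsewhere. ZNF792 had one at percentile 0.481 to 8.67 in 6 libraries and none in shEZH2 replicate 2, GSK126 and shSUZ12. ZNF114, at 4.53 to 49.5 in 6 libraries, lacked one in shEZH2 replicate 1, shE2F1 replicate 1 and shSUZ12. These genes were named after their values were seen, and for no knockdown did the missing or added peak recur in both replicates.

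No member gained or lost its peak in both libraries of an EZH2 or E2F1 knockdown. With shEZH2, 0 members had a peak in both knockdown libraries and neither control library and 0 showed the reverse, against 0.0749% and 0.993% of all 20033 promoters. With shE2F1 both counts were again 0, against 0.195% and 0.589%. The share open differed between shEZH2 and shCtrl by 0.417 points and between shE2F1 and shCtrl by 0.208 points (exact permutation test, 2 against 2 libraries, two-sided, p = 1.00 in both, where the smallest possible is 0.333333). The 6 libraries with any perturbation did not differ detectably from the 3 control libraries in share open (86.1% against 86.4%, exact permutation test, p = 0.619) or in median percentile (91.1 against 91.9, p = 0.595), where the smallest possible p is 0.0119. Both groups are mixed, so this test asks only whether perturbation as a class stands apart, and opposite changes would cancel in the mean.

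In the lists as called, member promoters ranked lower with shEZH2, and so did promoters in general. The median percentile was 88.4 ± 0.339 (SD, n = 2) against 91.8 ± 0.454 in shCtrl, with no overlap (exact permutation test, p = 0.333333, the smallest possible). With lists of equal length the difference shrank from -3.38 to -1.57 and the groups overlapped (exact permutation test, p = 0.667). The median of all other genes was 72.0 in shEZH2 and 74.7 in shCtrl. Of 204 members with a peak in these 4 libraries, 82 (40.2%) ranked lower with shEZH2 than in either shCtrl library, in each replicate, against 29.7% of all promoters, and 20 (9.80%) were higher in both, against 10.6%. With lists cut to equal length, 29.1% of members were lower and 18.2% higher, against 14.4% and 23.9% of all promoters. With shE2F1 the medians overlapped, 91.8 and 93.0 against 92.1 and 91.5, although with lists of equal length they did not and the difference rose from 0.549 to 1.39 (exact permutation test, p = 0.333333, the smallest possible). In the lists as called, 18.0% of members were lower in both libraries and 18.4% higher, against 17% and 19.2% of all promoters. With lists of equal length these shares were 12.7% and 21.1%, against 15.4% and 22.3%.

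The fit across promoters gave no call among the members. limma was fitted to log2 fold enrichment, quantile-normalised over the 12026 promoters with a peak in all 9 libraries, which included 204 members. At an adjusted p of 0.05 it called 0 promoters (0% of those tested), members included, in either comparison. At an unadjusted p of 0.05, 23 members passed in shEZH2 (11.3%, 21 lower and 2 higher) against 6.75% of all promoters, and 9 in shE2F1 (4.41%, 7 lower and 2 higher) against 5.7%. Members that share a peak were counted separately: ZNF829 and ZNF568, both among the 23, had identical values (log2 difference -0.344). The excess with shEZH2 was absent without shEZH2 replicate 2 or without either shCtrl replicate, and present without shEZH2 replicate 1. Each such fit leaves 1 library in a group and has less power, so it cannot decide whether the excess rests on single libraries. The median log2 difference of members was -0.05 with shEZH2, where 128 of 204 were below 0 (62.7%), against 0.01 and 47.3% for all promoters. With shE2F1 it was -0.02, with 53.9% of members below 0, against 0.00 and 49.3%. With 1 library of the shEZH2 comparison left out, the median of members stayed below 0. It was -0.04 without shEZH2 replicate 2, -0.08 without shEZH2 replicate 1 and -0.06 without either shCtrl replicate. The lean with shEZH2 was also seen in each range of strength: below 0 were 65.4%, 64.1% and 61.4% of members with a mean percentile under 75, from 75 to 90 and from 90, against 46.2%, 46.2% and 49.8% of all other promoters. With shE2F1 the same ranges gave 61.5%, 59.4% and 49.1% of members, against 48.3%, 49.7% and 50.3% of all other promoters. By cluster, with shEZH2 80.0% of 20 tested genes of cluster 7, 70.4% of 27 of cluster 4 and 69.4% of 49 of cluster 9 were below 0, but 32.0% of 25 of cluster 3 and 42.9% of 21 of cluster 6. With shE2F1 these clusters, in the same order, had 65.0%, 70.4%, 59.2%, 40.0% and 38.1% below 0. These shares have no test of their own, and both comparisons share the shCtrl libraries.

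**Figure D4:**
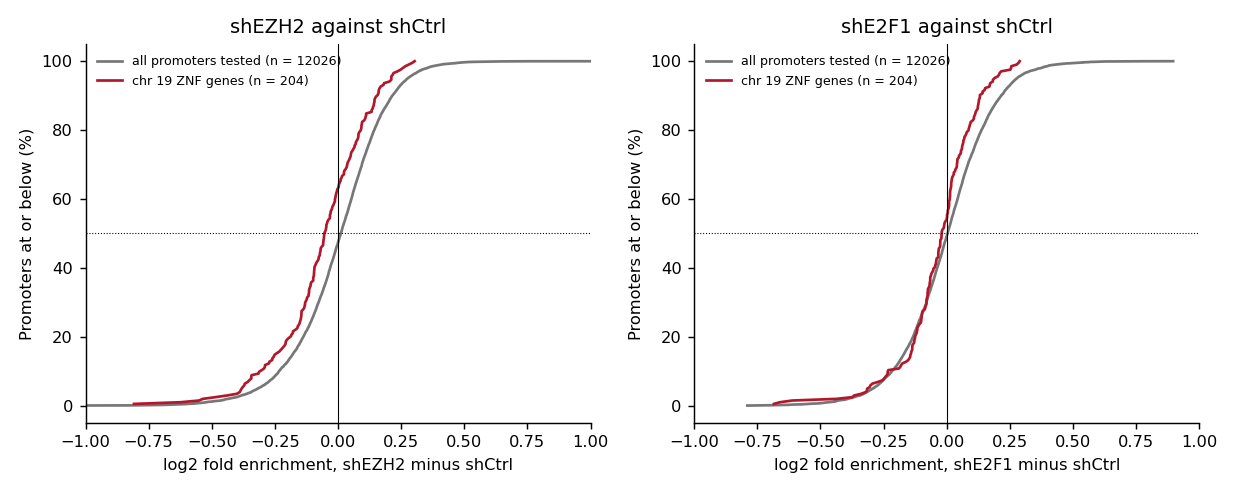
Cumulative share of promoters at or below each log2 difference in fold enrichment, for shEZH2 (left) and shE2F1 (right) against shCtrl, over 12026 promoters (grey) and the 204 chromosome 19 ZNF promoters among them (red); the axis is limited to values from -1 to 1. The red line crosses 0 at 62.7% with shEZH2 and at 53.9% with shE2F1.

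The members with the lowest p-values were ZNF582, ZNF709 and ZNF551 for shEZH2 and ZNF582, ZNF256 and ZNF709 for shE2F1. The promoter of ZNF582, a KRAB zinc finger gene of cluster 9, was at percentile 91.3 and 96.5 in shCtrl, 57.4 and 52.0 in shEZH2, 56.2 and 78.0 in shE2F1, 75.6 with DMSO, 87.1 with GSK126 and 85.9 in shSUZ12. Its shEZH2 libraries were below every other library but for shE2F1 replicate 1, which lay between them. Its log2 difference was -0.81 ± 0.14 (SE) with shEZH2 (limma adjusted p = 0.399) and -0.66 ± 0.14 with shE2F1 (limma adjusted p = 0.606). It rested on few tags, 46 and 63 in shCtrl against 27 and 20 in shEZH2 and 23 and 37 in shE2F1.

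The others were spread likewise over the libraries. ZNF709, in cluster 3, was at 95.7 and 94.0 in shCtrl, 76.7 and 71.7 in shEZH2 and 82.7 and 78.5 in shE2F1, and at 82.2 with DMSO, so that the other control lay with the knockdowns. Its log2 difference was -0.49 ± 0.13 with shEZH2 (limma adjusted p = 0.503) and -0.44 ± 0.13 with shE2F1 (limma adjusted p = 0.717). ZNF551, in cluster 9, was at 84.5 and 93.8 in shCtrl, 52.9 and 62.1 in shEZH2 and 79.1 and 94.9 in shE2F1, with a log2 difference of -0.62 ± 0.17 for shEZH2 (limma adjusted p = 0.510). ZNF256, in cluster 9, was at 94.1 and 98.0 in shCtrl, 85.9 and 97.5 in shEZH2 and 65.7 and 77.4 in shE2F1, with a log2 difference of -0.68 ± 0.16 for shE2F1 (limma adjusted p = 0.606). None of these 4 genes passed the threshold in either comparison.

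**Figure D5:**
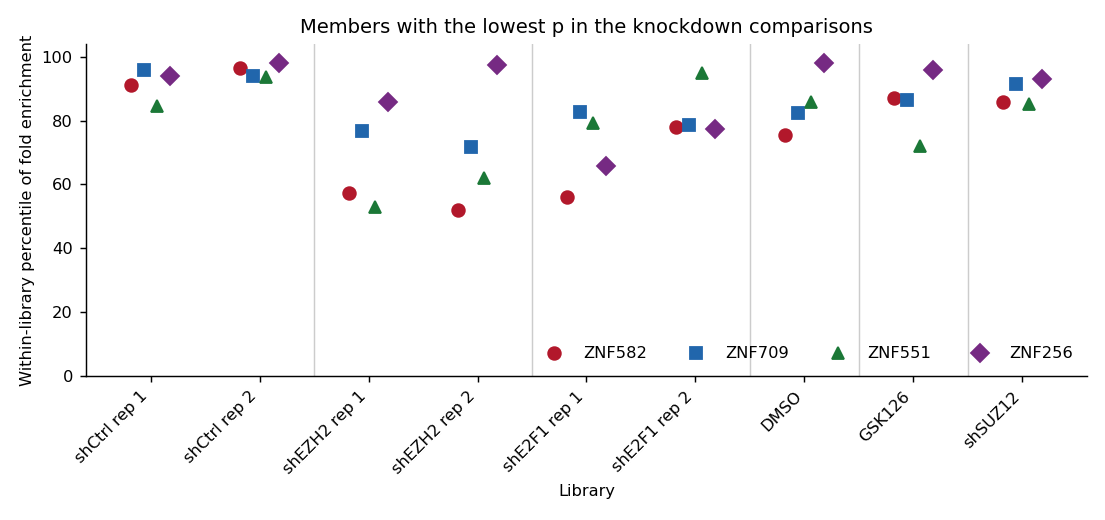
Within-library percentile of the promoter peak of ZNF582, ZNF709, ZNF551 and ZNF256 in each of the 9 libraries, divided by group. For ZNF582, ZNF709 and ZNF551 the shEZH2 points lie under both shCtrl points, and ZNF256 is lowest in the shE2F1 libraries.

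SUZ12 knockdown and GSK126 had 1 library each and are given as values with no test. In shSUZ12 85.4% of members were open, against 86.7% and 86.2% in shCtrl. ZNF792 and ZNF114 were without the peak that both shCtrl libraries had, 2 of 240 members against 0.759% of all promoters, and 0 members gained one, against 0.859%. The percentile of the 205 members open in these libraries was higher by a median of 1.16 than the shCtrl mean, against 2.73 for all promoters, and the difference reached 20 points in 2 members (0.976%) against 4.82% of all promoters. With GSK126 85.8% were open against 86.2% with DMSO, with 1 member lost (ZNF792), against 1.88% of all promoters, and 0 gained, against 0.854%. The median difference of 206 members was 0.103 points, against -0.764 for all promoters, and 4 members differed by 20 points or more (1.94%), against 5.51%. The shCtrl replicates differed by as much in 1 of 207 members (0.483%) and in 5.13% of all promoters. Members rank nearer the upper limit of the percentile, with less room to differ, so these shares do not compare promoters of equal strength.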

How the data were processed

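The authors aligned reads with Bowtie2 to GRCh38 (hg38), shifted them for Tn5 and called peaks per library. The peak caller is not given in the sources used here. Each deposited list gives a score, the fold enrichment at the summit (a ratio, column 7), and −log10 p and q values, with no counts. The deposited lists have no header and follow the NarrowPeak layout. Deposited ratios imply whole tag counts: fold = (tags + 1)/(background + 1) with a Poisson p returned 100% of peaks, with a largest deviation in −log10 p of 0.00108 (peaks with −log10 p under 250).

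Canonical transcript starts came from GENCODE v44. The arms were divided at 26 Mb. The members and lists were chosen with earlier results of these data known. Members, gene sets and arms were compared over libraries by exact sign-flip or permutation tests, with Benjamini-Hochberg adjustment. Promoter ratios were tested with limma 3.58.1 in R 4.3.3 on log2 fold enrichment, fitted to all 9 libraries. The spread came only from the shCtrl, shEZH2 and shE2F1 replicates, since groups of 1 library add none. In simulated data 68.0% (shEZH2) and 63.5% (shE2F1) of 200 planted changes of 1 on the log2 scale were found among 12026 promoters. Genes were named by a rule: the 6 highest and 6 lowest members, members whose peak was gained or lost, the 3 lowest p per comparison where none passed, the 12 shut members with the lowest starts, and presets. KRAB was a strict sequence pattern in the canonical protein, which misses some known KRAB proteins, and fingers a C2H2 pattern. Intervals and tags cover counting error only.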

Additional observations from a re-analysis of the deposited data

How the results depend on the processing

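The members' mean share open was 85.6% with lists of equal length, 85.4% with windows of 250 bp and 87.3% with any protein-coding transcript, and their mean median percentile was 89.4 with lists of equal length. The lower share on the p arm and the higher percentile against all 3 other sets kept their sign and threshold under every alternative run, and so did the higher share against other chromosome 19 genes and all other genes, but sizes moved. The arm difference in share was -1.45 with windows of 250 bp and -4.28 with any transcript, and the lead in percentile over other chromosome 19 genes was 2.52 with percentiles of −log10 p. The higher percentile on the p arm became 1.11 with any transcript (exact sign-flip test, p = 0.0586) and reversed to -2.57 with percentiles of −log10 p. It was 1.14 to 1.67 when 1 replicate was left out, and it missed the threshold without shCtrl replicate 2, without either shEZH2 replicate and without shE2F1 replicate 1. The share against ZNF genes elsewhere was -0.800 with −log10 q of at least 5 (exact sign-flip test, p = 0.141), 0.668 with lists of equal length, 0.530 with windows of 250 bp and 1.58 with trailing letters, and -1.52 to -1.04 without 1 replicate, past the threshold only without shEZH2 replicate 2 or shE2F1 replicate 1. The cause of these changes was not tested, apart from the tags given for the arms.

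For shE2F1 the difference in share was -0.208 with lists of equal length and -0.208 to 0.625 without 1 replicate, and that in percentile 1.39 with lists of equal length, -0.225 with −log10 p and -0.0431 to 1.14 without 1 replicate, the lowest values without shE2F1 replicate 2. For shEZH2 the difference in share was -1.04 to 0.208 without 1 replicate, with the highest value without shEZH2 replicate 2. Its percentile difference was -1.57 with lists of equal length. For shSUZ12 the percentile difference was 2.33 with lists of equal length and -1.80 with −log10 p, and the share difference -0.208 with any transcript. For GSK126 the percentile difference was 0.398 with lists of equal length. The 6 perturbed against 3 control libraries gave 0.172 with lists of equal length, an alternative chosen after seeing the data. limma called 5 promoters for shEZH2 with no normalization, and 3 for shEZH2 and 6 for shE2F1 with missing peaks at the list minimum, 0 members among them. With a replicate block it called 0 promoters in either comparison (847 and 719 at an unadjusted p of 0.05). The correlations of same-numbered libraries, 0.06, 0.04 and 0.01, do not pair them. Comparisons of 2 libraries with 2 cannot pass the threshold, and a peak list cannot tell a shut promoter from one in sequence where reads were lost.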
